A study of Homo sapiens with 8 samples.

Results

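The 10 immediate-early transcription factors FOS, FOSB, FOSL1, FOSL2, JUN, JUNB, JUND, EGR1, NR4A1 and NR4A2 were followed in LX-2 cells, an established line of human hepatic stellate cells, the cell type that lays down scar matrix in the injured liver. They were taken by symbol, and all 10 were listed among the 14870 rows of the table. One group of 4 samples received recombinant human TGF-β1 and 5 µM ML290, a synthetic small molecule that activates RXFP1, the receptor of the hormone relaxin, for 72 h. The other group of 4 samples received recombinant human TGF-β1 and the solvent DMSO for 72 h. Every sample thus had TGF-β1, in DMEM with 2% FBS, and all came from the same cell line. The comparison asks what ML290 changed in these factors under continued TGF-β1.

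AP-1 is a dimer of basic leucine zipper proteins. FOS family proteins bind DNA only with a partner, usually of the JUN family, whereas JUN proteins can also pair with each other. EGR1 is a zinc finger factor, and the NR4A proteins are orphan nuclear receptors. Their genes are known for fast and brief transcription after growth factors, stress or cAMP, through promoter sites for SRF, CREB and AP-1 itself, and their messages are mostly short-lived. In stellate cells, AP-1 factors are known to take part in activation and in the control of matrix and matrix-degrading enzymes. The samples were taken long after the first hours in which such genes usually peak, so the values below are late levels.

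The values are the authors' group means of normalised read counts, 1 per gene and group, and the adjusted p is the authors' own, from a test that is not given. No values per sample were used here, so the values carry neither an SD nor a number of samples that moved one way. The design text calls the 4 samples of a group biological replicates. Low values were spaced by 1 read, and if the scale is reads in 1000000, this spacing gives a depth near 19200000 for a library with ML290 and 21000000 for one with DMSO. Of 11 stellate cell and myofibroblast markers 9 were listed, with summed means of 5289 with ML290 and 8707 with DMSO per the authors' deposited table. Of these 9, 7 were lower and 1 was higher with ML290 at an adjusted p under 0.05 per the authors' deposited table. Of all rows of the authors' deposited table, 15.6% were lower and 19.5% higher. The 7 lower markers were COL1A1, COL1A2, COL3A1, ACTA2, PDGFRB, PDGFRA and TAGLN. They ranged from 2.06-fold lower for COL1A2 to 3.88-fold lower for COL3A1 per the authors' deposited table. VIM was 1.18-fold higher per the authors' deposited table, HAND2 did not pass, and DES and LRAT were not listed. Of 5 hepatocyte, 4 epithelial and 4 endothelial markers, 1, 1 and 2 were listed, with summed means of at most 3.43 in either group of the authors' deposited table. Of 5 macrophage and leukocyte markers, 3 were listed, with summed means of 75.6 with ML290 and 40.8 with DMSO per the authors' deposited table. Most of that sum was CD68, also a lysosomal protein of other cells, at 71.7 with ML290 and 35.1 with DMSO per the authors' deposited table (adjusted p = 1.48e-05). CD14 went the other way, with 3.59 with ML290 and 5.38 with DMSO per the authors' deposited table (adjusted p = 0.0169), and PTPRC and CD163 were not listed. Whether other cells had a part in the results below was not tested.

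Of the 10 factors, 8 were higher and 1, EGR1, was lower with ML290 at an adjusted p under 0.05 per the authors' deposited table, and FOS did not pass. Over all rows of the authors' deposited table, 35.1% passed, 19.5% higher and 15.6% lower with ML290. Fewer expressing cells and less RNA per cell cannot be told apart in such bulk samples. The 8 higher factors included 6 of the 7 AP-1 genes and both NR4A genes. FOSB, NR4A2, NR4A1 and JUND were at least 2-fold higher, whereas 2.15% of all rows of the authors' deposited table passed and were at least 2-fold higher. NR4A2 lies near the floor, and with a pseudocount of 1 on both means its log2 ratio of 1.64 became 0.59, below a 2-fold difference. The median log2 ratio, ML290 over DMSO, was 0.73 over the 10 factors and 0.02 over all rows of the authors' deposited table. Sizes ranged from 1.15-fold for FOSL2 to 3.30-fold for FOSB among the factors that passed per the authors' deposited table.

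**Figure D1:**
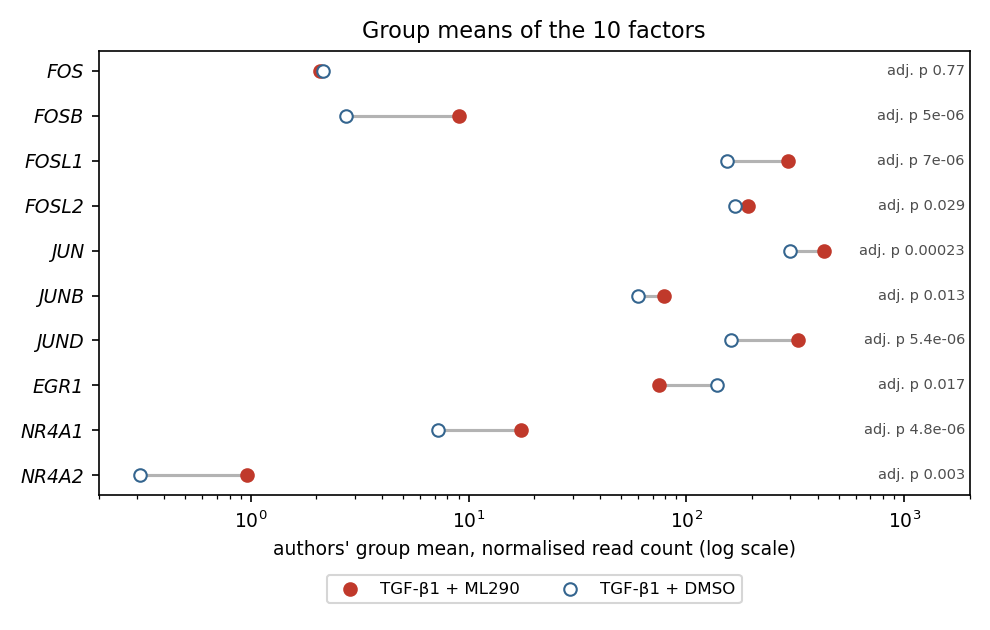
Group means of the 10 factors in normalised read counts on a log axis, 1 row per gene, with TGF-β1 and ML290 as filled points and TGF-β1 and DMSO as open points; each point is an authors' mean over 4 samples, with no error available, and the authors' adjusted p stands at the right. The filled point lies to the right of the open point for 8 genes, to the left for EGR1, and the points of FOS nearly coincide.

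In the FOS family, the scarce FOSB and the abundant FOSL1 moved most, while FOS itself did not pass the test. FOSB, a FOS paralogue of which a truncated splice form is known in brain for its long life, averaged 8.99 with ML290 against 2.72 with DMSO, 3.30-fold higher per the authors' deposited table (adjusted p = 5.00e-06). These means rest on about 689 reads in the ML290 libraries and 229 reads in the DMSO libraries. Exact Poisson 95% intervals, which cover counting error only, ran from 8.33 to 9.68 with ML290 and from 2.38 to 3.10 with DMSO, so they did not overlap. FOSL1, or FRA1, a FOS protein without a strong activation domain that is often the main FOS member of growing mesenchymal cells, had 291.7 with ML290 against 153.3 with DMSO, 1.90-fold higher per the authors' deposited table (adjusted p = 7.02e-06). FOSL2, or FRA2, a factor linked to fibrosis in mice that overexpress it, had 191.7 with ML290 against 166.8 with DMSO, 1.15-fold higher per the authors' deposited table (adjusted p = 0.0289). FOS, the founding member, had 2.09 with ML290 against 2.15 with DMSO per the authors' deposited table (adjusted p = 0.775). Its counting intervals, 1.78 to 2.44 with ML290 and 1.85 to 2.49 with DMSO, overlapped over most of their length. A difference in FOS smaller than these intervals was not detectable at this depth, about 160 reads with ML290 and 181 reads with DMSO.

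Per kb of the longest coding transcript, FOS had 0.967 normalised reads with ML290 and 0.997 with DMSO, and FOSB had 2.38 with ML290 and 0.722 with DMSO. Per kb of the median coding transcript, FOS had 2.50 with ML290 and 2.58 with DMSO, and FOSB had 2.69 with ML290 and 0.814 with DMSO, so the order of the pair with ML290 rests on the length used. The promoters of this pair are shown because both hold a CRE core and a TATA box at nearly the same distance from the start. On GRCh38 with GENCODE 29, FOS is a protein-coding gene on the plus strand of chromosome 14 from 75278774 to 75282230, and FOSB a protein-coding gene on the plus strand of chromosome 19 from 45467995 to 45475179, both with 4 exons in the longest coding transcript. The RefSeq windows, GRCh38.p14, run from 250 bases before the transcription start to 50 after it, at chr14:75278578-75278877 and chr19:45467746-45468045, plus strand. Capitals mark the CRE core, TGACG or its complement CGTCA, which is the short form of the CREB site, and the TATA box, TATAAA.
FOS: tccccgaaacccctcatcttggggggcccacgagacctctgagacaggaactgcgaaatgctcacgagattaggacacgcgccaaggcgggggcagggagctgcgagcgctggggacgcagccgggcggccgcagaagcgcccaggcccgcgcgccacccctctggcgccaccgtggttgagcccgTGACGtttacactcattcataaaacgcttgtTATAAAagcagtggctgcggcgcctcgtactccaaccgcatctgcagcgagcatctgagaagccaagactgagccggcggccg
FOSB: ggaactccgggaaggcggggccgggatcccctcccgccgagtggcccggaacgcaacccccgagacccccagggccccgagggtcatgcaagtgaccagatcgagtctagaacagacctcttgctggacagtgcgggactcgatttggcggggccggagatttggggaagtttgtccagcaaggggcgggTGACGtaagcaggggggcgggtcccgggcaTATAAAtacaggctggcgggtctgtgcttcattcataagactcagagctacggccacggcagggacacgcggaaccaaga
Each window holds 1 CRE core, 64 bases upstream of the start in FOS and 60 in FOSB, and 1 TATA box, 33 and 30 bases upstream. Their GC boxes lie apart, 127 bases upstream in FOS and 67 and 46 bases upstream in FOSB. A CRE core on either strand was found in 24.6% of 35116 promoter windows of that length, and a TATA box in 11.5%. FOSB overlaps ERCC1, a DNA repair gene on the opposite strand, which had 82.1 with ML290 against 72.9 with DMSO per the authors' deposited table (adjusted p = 0.0349). Whether the counting used strand is not given in the sources used here, so reads of ERCC1 within FOSB cannot be told apart from its own. Non-coding genes that are not listed overlap FOSL2 and NR4A1.

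All JUN family genes were higher with ML290, JUND by the most. JUND, the member usually held steady while the others respond to stimuli, had 325.1 with ML290 against 159.9 with DMSO, 2.03-fold higher per the authors' deposited table (adjusted p = 5.44e-06). JUN, the classical partner of FOS and target of the kinase JNK, had 430.2 with ML290 against 298.6 with DMSO, 1.44-fold higher per the authors' deposited table (adjusted p = 0.000234). JUNB, which can act against JUN in cell growth, had 78.7 with ML290 against 59.7 with DMSO, 1.32-fold higher per the authors' deposited table (adjusted p = 0.0130). The longest coding transcript of each of these genes has 1 exon in GENCODE 29. JUN lies on the minus strand of chromosome 1 from 58780788 to 58784327, JUNB on the plus strand of chromosome 19 from 12791496 to 12793315 and JUND on the minus strand of chromosome 19 from 18279760 to 18281622. JUNB overlaps HOOK2 on the opposite strand, which had 14.8 with ML290 against 13.2 with DMSO per the authors' deposited table (adjusted p = 0.173).

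The JUND window is shown because it was the only window among those of the factors with a full CRE, TGACGTCA, which 1.85% of all promoter windows held. It lies at chr19:18281573-18281872 of GRCh38.p14 and is printed 5′ to 3′ on the minus strand, with the CRE and a further CRE core in capitals.
JUND: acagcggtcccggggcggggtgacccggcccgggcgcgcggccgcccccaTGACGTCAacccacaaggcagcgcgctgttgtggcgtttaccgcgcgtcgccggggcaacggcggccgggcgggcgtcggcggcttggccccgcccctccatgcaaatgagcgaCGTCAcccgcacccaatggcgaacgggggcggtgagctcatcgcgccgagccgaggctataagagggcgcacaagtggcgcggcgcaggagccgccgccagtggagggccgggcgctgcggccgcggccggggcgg
The full CRE begins 200 bases upstream of the start and itself contains a CRE core on each strand, and the separate core begins 86 bases upstream. JUN and JUNB each held 1 CRE core, 123 and 137 bases upstream. The TRE, TGAGTCA or TGACTCA, which is the AP-1 site, was found only in FOSL2 among these windows, 4 bases after its start. It was found in 4.95% of all windows. Only these exact letters were searched, so variant AP-1 sites in the other windows would be missed.

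**Figure D2:**
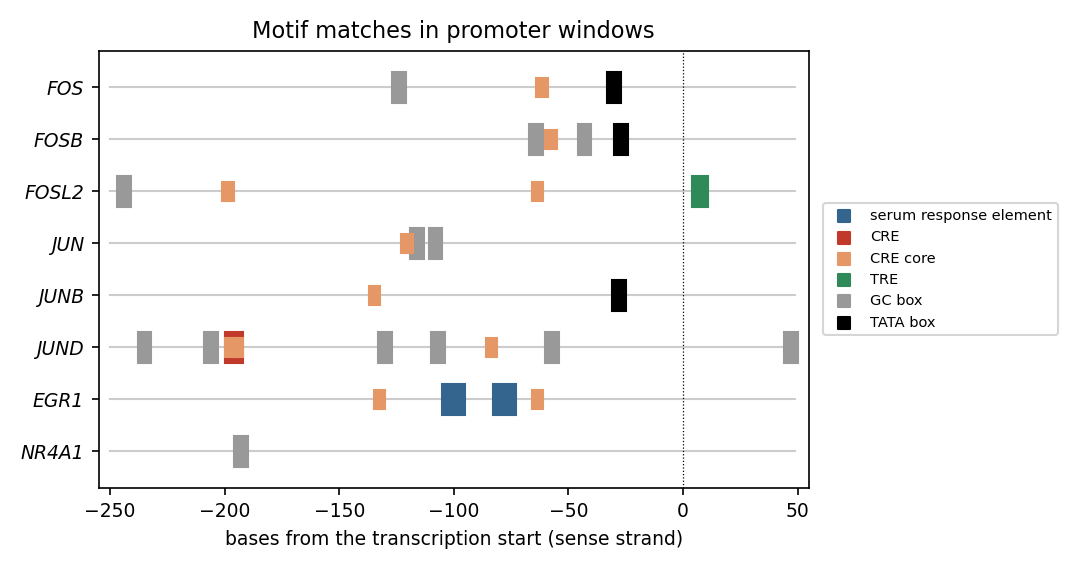
Motif matches on either strand in the promoter windows of 8 factors, by bases from the transcription start; boxes are drawn to scale, and the CRE core is drawn lower than the other boxes so that it shows inside the CRE. Within these windows EGR1 holds the only serum response elements and JUND the only full CRE, and sequence outside them was not searched. Of the 2 windows of NR4A1, the one with a match is drawn.

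Divided by length, FOSL1, JUND and JUN made up most of the AP-1 messages in both groups. Per kb of the longest coding transcript, the 7 AP-1 genes summed to 546.0 normalised reads with ML290 against 321.4 with DMSO, a ratio of 1.70, from group means of the authors' deposited table. FOSL1 took 32.0% of that sum with ML290 and 28.6% with DMSO, and JUND 32.0% and 26.7%. The share of JUN was 22.3% with ML290 and 26.2% with DMSO. The shares of JUNB were 7.92% with ML290 and 10.2% with DMSO, and those of FOSL2 5.23% and 7.74%. FOS and FOSB together stayed below 1% in either group, with 0.177% and 0.436% with ML290 against 0.310% and 0.225% with DMSO. The 3 leading genes cannot be ranked firmly, since FOSL1 led per longest and JUND per median coding transcript in both groups. Within the FOS family FOSL1 held 84.6% with ML290 and 77.5% with DMSO, and within the JUN family JUND held 51.4% and 42.3%. The family sums moved alike, 1.75-fold for FOS and 1.67-fold for JUN. The FOS to JUN ratio of levels per kb was thus 0.609 with ML290 and 0.583 with DMSO. Without division by length the sums were 1.52-fold higher for FOS and 1.61-fold for JUN. Whether this ratio rose or fell with ML290 therefore rests on the length used. These shares have no replicate error and were not tested.

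**Figure D3:**
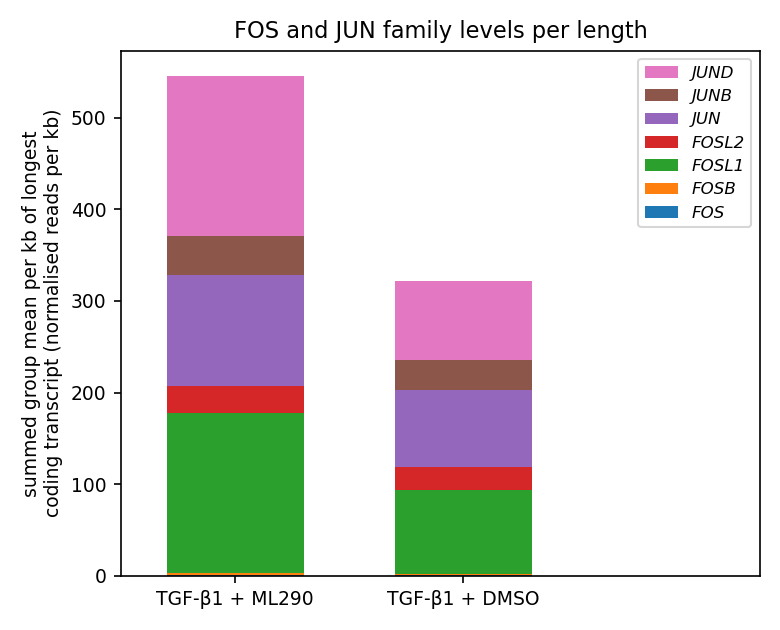
Stacked levels of the 7 AP-1 genes, in normalised reads per kb of the longest coding transcript, with TGF-β1 and ML290 on the left and TGF-β1 and DMSO on the right; bars are sums of the authors' group means without error. The stack reaches 546.0 with ML290 and 321.4 with DMSO, and most of the difference lies in JUND, FOSL1 and JUN.

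EGR1 was the only factor that fell with ML290. It averaged 74.7 with ML290 against 138.2 with DMSO, 1.85-fold lower per the authors' deposited table (adjusted p = 0.0170). Its fold was close in size to that of FOSL1, but its p, 0.00447, was far larger. Of 89 other rows of the authors' deposited table with a level within 2 times of its own and a log2 size within 0.15, 2 had a larger p than EGR1 and 87 passed the adjusted threshold, with a median p of 1.71e-08. JUND, FOSL1, JUNB and JUN also had larger p than most such rows, with 2 of 25, 3 of 41, 108 of 955 and 18 of 91 above them per the authors' deposited table. For NR4A1 it was 20 of 49 and for FOSL2 510 of 900 rows per the authors' deposited table. For FOSB and NR4A2 it was 5 of 9 and 20 of 33 rows per the authors' deposited table. The spread between the samples behind these p-values cannot be seen in group means.

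EGR1 is a protein-coding gene with 2 exons on the plus strand of chromosome 5 from 138465490 to 138469315. Its promoter is shown because it alone among the windows of 8 factors held serum response elements, the sites of SRF, also called CArG boxes. Sequence more than 250 bases upstream of a start was not searched, so elements farther off in the other factors would be missed. The RefSeq window is chr5:138465229-138465528 of GRCh38.p14, plus strand, with both serum response elements and both CRE cores in capitals.
EGR1: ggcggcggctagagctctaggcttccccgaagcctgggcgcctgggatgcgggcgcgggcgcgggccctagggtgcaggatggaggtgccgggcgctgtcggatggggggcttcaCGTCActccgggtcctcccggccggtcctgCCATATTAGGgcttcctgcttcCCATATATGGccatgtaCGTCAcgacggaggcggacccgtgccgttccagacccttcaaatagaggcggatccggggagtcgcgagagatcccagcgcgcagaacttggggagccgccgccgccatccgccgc
The serum response elements begin 105 and 83 bases upstream of the start, between CRE cores 135 and 66 bases upstream. At least 1 serum response element was found in 1.29% of all promoter windows. The EGR site GCGTGGGCG and the NR4A site AAAGGTCA, called NBRE, were found in none of the windows of 8 factors, against 0.795% and 1.22% of all windows. The GC box GGGCGG was found in windows of 6 of the 8, against 45.0% of all. FOSL1 and NR4A2 had no entry.

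Both NR4A genes were higher with ML290, at low levels. NR4A1, or NUR77, a receptor without a known natural ligand that has been described as a brake on TGF-β signalling in fibroblasts, had 17.3 with ML290 against 7.26 with DMSO, 2.39-fold higher per the authors' deposited table (adjusted p = 4.79e-06). NR4A2, or NURR1, known above all from dopamine neurons, had 0.966 with ML290 against 0.310 with DMSO, 3.11-fold higher per the authors' deposited table (adjusted p = 0.00299). NR4A2 was near the floor, with about 74 reads over the ML290 libraries and 26 reads over the DMSO libraries. Its Poisson 95% intervals, 0.758 to 1.21 with ML290 and 0.202 to 0.453 with DMSO, did not overlap. These intervals cover counting error only, not the spread between samples. NR4A1 lies on the plus strand of chromosome 12 from 52022832 to 52059507 and NR4A2 on the minus strand of chromosome 2 from 156324432 to 156342348.

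Among the other EGR and NR4A members and the EGR corepressors, 5 genes were listed. Of these, 2 were higher and 1 lower with ML290 per the authors' deposited table, with a median log2 ratio near 0. That was 40.0% and 20.0%, against 19.5% and 15.6% of all rows. NR4A3, the other NR4A receptor, had 2.19 with ML290 against 0.724 with DMSO, 3.02-fold higher per the authors' deposited table (adjusted p = 0.00173). EGR3, a zinc finger relative of EGR1, had 0.486 with ML290 against 2.83 with DMSO, 5.82-fold lower per the authors' deposited table (adjusted p = 9.22e-06). Few reads lay behind both genes. They were about 168 with ML290 and 61 with DMSO for NR4A3, and 37 with ML290 and 238 with DMSO for EGR3. EGR2 had 1.34 with ML290 against 1.75 with DMSO per the authors' deposited table (adjusted p = 0.158). The EGR corepressor NAB2, a known EGR1 target, had 36.84 with ML290 against 36.85 with DMSO per the authors' deposited table (adjusted p = 0.984), and its relative NAB1 was 1.20-fold higher (adjusted p = 0.0114). EGR4 was not listed.

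**Figure D4:**
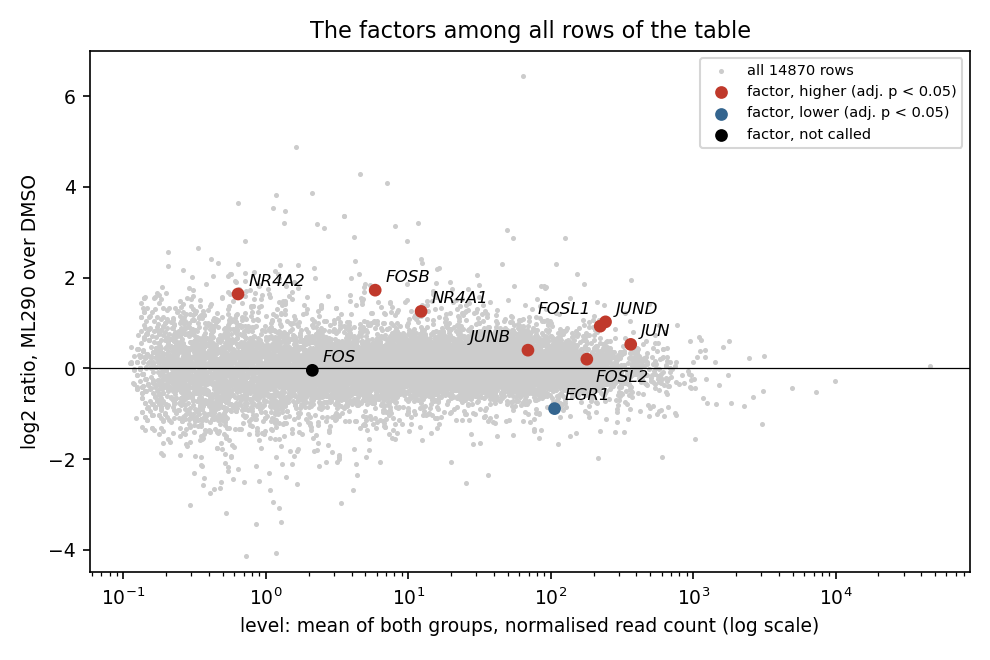
Log2 ratio, ML290 over DMSO, against the level, the mean of both groups in normalised read counts on a log axis, for all 14870 rows in grey and the 10 factors as named points. Factors that passed and were higher are red, EGR1 in blue is lower, and FOS in black did not pass; FOSB, NR4A2, NR4A1 and JUND lie above a log2 ratio of 1.

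Other leucine zipper factors pair with FOS or JUN proteins, and 11 of them were listed. Of these, 4 were higher and 1 lower with ML290 per the authors' deposited table. That was 36.4% and 9.09%, against 19.5% and 15.6% of all rows, with a list median log2 ratio of 0.12. The stress factor ATF3 had 7.48 with ML290 against 2.33 with DMSO, 3.21-fold higher per the authors' deposited table (adjusted p = 4.21e-06). The small MAF proteins, which lack an activation domain and partner NRF2 as well as FOS, were higher together. MAFF was 2.64-fold, MAFG 2.29-fold and MAFK 1.58-fold higher per the authors' deposited table (adjusted p = 5.47e-08, 9.00e-08 and 6.74e-06).

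Of 30 other immediate-early genes, all listed, 17 were higher and 2 lower with ML290 per the authors' deposited table, 56.7% and 6.67% against 19.5% and 15.6% of all rows, with a median log2 ratio of 0.28. IER3, a survival gene, was 3.46-fold higher, with 144.3 with ML290 against 41.7 with DMSO per the authors' deposited table (adjusted p = 1.16e-08). PHLDA1 was 2.64-fold, the pseudokinase TRIB1 2.34-fold and the factor KLF4 2.07-fold higher per the authors' deposited table (adjusted p = 1.70e-07, 6.85e-08 and 1.97e-07). The MAP kinase phosphatase DUSP1 was 1.58-fold higher per the authors' deposited table (adjusted p = 0.000217). The polo-like kinase PLK2 had 72.6 with ML290 against 130.2 with DMSO, 1.79-fold lower per the authors' deposited table (adjusted p = 0.000109).

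Messages of the factors and kinases upstream changed in both directions. Of 31 listed, 9 were higher and 7 lower with ML290 per the authors' deposited table, 29.03% and 22.6% against 19.5% and 15.6% of all rows, with a median log2 ratio of -0.04. SRF, the factor of the serum response element, had 67.1 with ML290 against 70.3 with DMSO per the authors' deposited table (adjusted p = 0.495). Its coactivator MKL2 was 1.31-fold lower per the authors' deposited table (adjusted p = 0.000343). MAP2K1, or MEK1, which activates the ERK kinases, was 1.36-fold higher per the authors' deposited table (adjusted p = 0.000235). MAPK13, a p38 kinase, was 1.93-fold higher at 7.14 with ML290 against 3.69 with DMSO, and the protein kinase A subunit PRKACA was 1.27-fold lower, both per the authors' deposited table (adjusted p = 0.000189 and 0.00185). These are message levels and say nothing of kinase activity.

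Known AP-1 targets, a list chosen with earlier results of these data known, were mostly higher. Of 20 listed of 22, 16 were higher and 1 lower with ML290 per the authors' deposited table. That was 80.0% and 5.00%, against 19.5% and 15.6% of all rows, with a list median log2 ratio of 0.70. The collagenase MMP1, whose promoter AP-1 site is a textbook case, had 220.2 with ML290 against 30.0 with DMSO, 7.33-fold higher per the authors' deposited table (adjusted p = 8.27e-08). IL6 was 9.24-fold, CXCL8 87.4-fold and the hormone STC1 3.49-fold higher per the authors' deposited table (adjusted p = 1.70e-08, 3.71e-10 and 5.07e-09). IL6 and CXCL8 are known NF-κB targets as well. The gelatinase MMP9 had 2.92 with ML290 against 6.99 with DMSO, 2.39-fold lower per the authors' deposited table (adjusted p = 6.71e-05). Known EGR1 targets split, with 27.8% higher and 22.2% lower with ML290, against 19.5% and 15.6% of all rows. Of these 18 targets, 5 were higher and 4 lower with ML290 per the authors' deposited table, with a median log2 ratio of 0.06. Among them the matrix protein THBS1 was 2.17-fold lower, and the adhesion molecule ICAM1 2.89-fold, GADD45A 2.16-fold and VEGFA 1.84-fold higher per the authors' deposited table (adjusted p = 4.68e-08, 8.76e-09, 1.23e-06 and 1.78e-06).

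Many immediate-early messages carry AU-rich elements, which decay factors bind. Of 12 such decay and stability factors, 1 was higher and 1 lower with ML290 per the authors' deposited table. That was 8.33% each way, against 19.5% higher and 15.6% lower of all rows, with a list median log2 ratio of -0.05. ZFP36, or tristetraprolin, which speeds decay, had 10.4 with ML290 against 7.77 with DMSO, 1.34-fold higher per the authors' deposited table (adjusted p = 0.00448). HNRNPD, or AUF1, was 1.21-fold lower per the authors' deposited table (adjusted p = 0.00181).

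**Figure D5:**
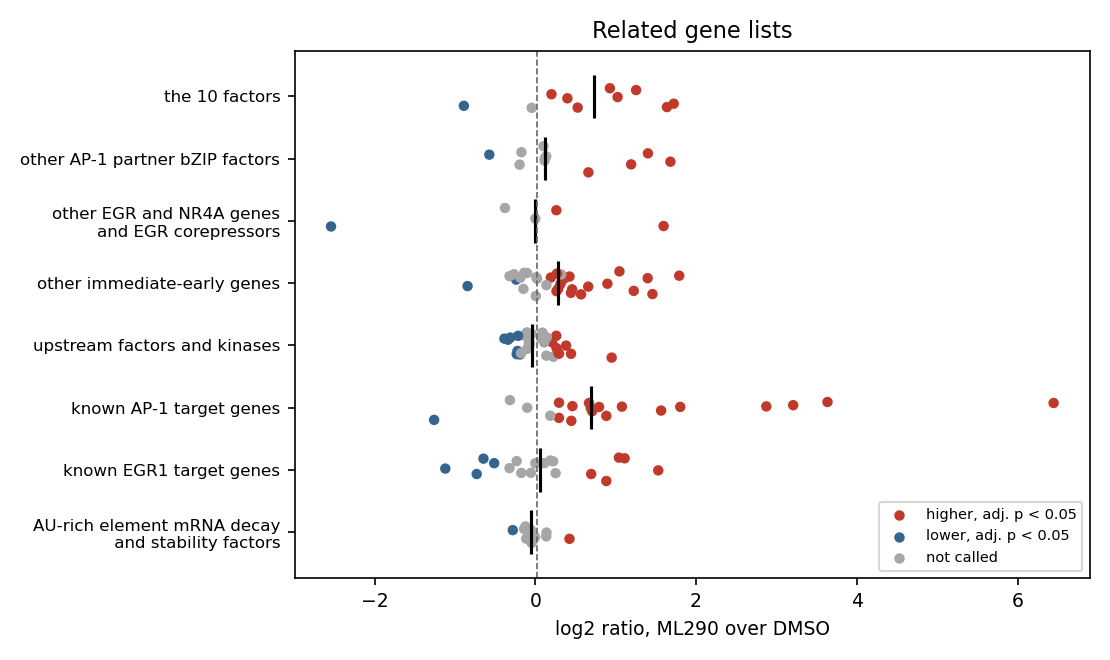
Log2 ratio, ML290 over DMSO, of each listed gene in the 10 factors and 7 related lists, with red for higher and blue for lower at an adjusted p under 0.05 and grey for not passing; black bars are list medians and the dashed line is the median of all rows. The medians are 0.73 for the factors and 0.70 for AP-1 targets, and lie between -0.05 and 0.28 in the other lists. The factors and lists were chosen with earlier results of these data known, so the medians are a description only. VEGFA is drawn in both target lists.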

How the data were processed

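RNA of 8 LX-2 samples, 4 per group, was sequenced. Per the submitters' processing notes, the tools were STAR and Partek and the build GRCh38, with neither version nor role. How reads were counted, filtered, normalised and tested is not stated. The table that the authors deposited holds, per the file headers, least-squares group means, a signal in normalised read counts, and a column of totals equal to 4 times the sum of both means. It also holds the ratio and signed fold score that the authors deposited, ML290 over vehicle, and the authors' p-value and step-up adjusted p-value. Vehicle is the DMSO group.

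From these values were computed log2 ratios, the level (the total divided by 8), counts at an adjusted p under 0.05 across all 14870 rows, and levels per kb of GENCODE 29 coding transcripts. The 1-read step was the spacing that best fitted the values of a group of 4 libraries summing to under 1. Within 0.15 of a whole read lay 87.9% of 595 such ML290 values and 95.7% of 555 DMSO values, the values the step was fitted to. Motifs were searched on both strands of RefSeq promoter windows, which 8 of the 10 factors matched.

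The factors and lists were chosen with earlier results of these data known. Named were all 10 factors and, in each list, the 4 smallest adjusted p among genes past the threshold, the largest increase and decrease, and 10 genes fixed by role. A gene that the rule takes is not reported here. Protein sequences were not used here. Calculations were tested on simulated data. The work was done in Python 3.11.15 (matplotlib 3.10.9, pandas 2.3.3, numpy 2.4.6 and scipy 1.17.1). Alternatives were other thresholds, another adjustment, filters on level and fold, scalings, a pseudocount and other lengths.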

Additional observations from a re-analysis of the deposited data

How the results depend on the processing

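The 8 higher factors became 5 at an adjusted p under 0.001, 5 at a fold of at least 1.5 and 4 at a fold of at least 2. Of all rows, 2.15% passed and were at least 2-fold higher. The share of all rows was not computed at the other settings of this section. The counts at those settings therefore cannot be set against the table as a whole. The lower factor, EGR1, was lost at an adjusted p under 0.01 or under 0.001, under Benjamini-Yekutieli adjustment and at a fold of at least 2, each leaving 0. Under Benjamini-Yekutieli adjustment FOSL2 (log2 ratio 0.20), JUNB (0.40) and EGR1 (-0.89) no longer passed, at an adjusted p of 0.295, 0.132 and 0.173. Centring, equal sums and a pseudocount of 1 changed no direction among the 10 factors, and no p was computed anew under them. The pseudocount lowered the log2 ratio of NR4A2 to 0.59, from 1.64, and that of FOSB to 1.42, from 1.72. The FOS family sum was 1.52-fold higher without division by length, and the JUN family sum 1.74-fold per median coding transcript and 1.61-fold without division. At an adjusted p under 0.01, lower calls went to 0 among leucine zipper partners, 1 among other immediate-early genes and 2 among upstream genes, and higher calls to 1 among EGR and NR4A relatives. Other list counts stayed within 1.5 times at that threshold and with a level of at least 1. Chosen after seeing the data, an unadjusted p under 0.05 called the same numbers, 8 and 1, and leaving out FOS and NR4A2 left 7 and 1.

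No paired analysis was possible because the table holds group means, which carry no replicate numbers, and leaving out a replicate was not run for the same reason. Depth limits FOS and NR4A2 most.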

Other observations

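Because EGR1 was the only factor with serum response elements in the promoter windows of 8 factors, genes of the table were counted by motif, after the values were seen and with no test. Of 10912 listed genes with a promoter window, 19.9% were higher and 16.1% lower with ML290 in the authors' deposited table. Of 170 listed genes with a serum response element in a window, 21 were higher and 49 lower with ML290, 12.4% and 28.8%, with a median log2 ratio of -0.10 in the authors' deposited table. EGR1, which prompted the count, is itself among these 170 and the 49. Of 400 with a full CRE, 94 were higher and 51 lower, 23.5% and 12.8%, with a median of 0.05 in the authors' deposited table. Of 537 with a TRE, 135 were higher and 85 lower, 25.1% and 15.8%, with a median of 0.07 in the authors' deposited table. The EGR site gave 35 higher and 28 lower of 183 genes, 19.1% and 15.3%, in the authors' deposited table. The NBRE gave 26 higher and 16 lower of 125 genes, 20.8% and 12.8%, with a median of 0.09. With a CRE core, 22.8% of 4346 genes were higher and 14.3% lower, with a median of 0.03. For the GC box it was 20.6% and 16.6% of 8229 genes, and for the TATA box 19.6% and 18.6% of 930 genes. A motif match does not show binding, and genes with several windows count when any window holds the motif.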
